A study of Mus musculus with 32 samples.

Results

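Messenger RNA of 38 genes of autophagy and mitophagy was followed over 1 day in mouse iBAT, the interscapular brown fat that lies between the shoulder blades and burns lipid to make heat. The members are the autophagy and mitophagy symbols listed for this description, chosen by name and not by a measured value, and all 38 matched a row among the 50686 Ensembl genes of the count table. All 38 also passed the filter on low counts that left 15505 genes for testing, so the statements below cover the whole list. The animals were male C57BL/6J mice of 10 weeks on chow, not fasted, housed in mild cold under equal spans of light and dark. Time is Zeitgeber time (ZT), in hours after lights on, with the lights off, and mice active, from ZT12. Tissue was taken at 8 times, every 3 h, from 4 mice each, and every mouse gave 1 RNA library, 32 in all. No group carried a drug, a diet or a genetic change, and each mouse gave tissue at 1 time only, so that a time course joins different animals. The test results therefore measure time of day against the spread between these mice.

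Autophagy encloses part of the cytoplasm in a double membrane, the autophagosome, and delivers it to the lysosome for breakdown. The ULK1 kinase complex starts the process, class III phosphatidylinositol 3-kinase (PI3K) complexes mark the growing membrane, and a pair of ubiquitin-like conjugation systems attach ATG8 proteins to lipid, where cargo receptors bind. Mitophagy removes mitochondria by the same route, through receptors such as BNIP3 or after ubiquitin tagging, and in brown fat it is known for its part in the loss of mitochondria when thermogenic fat becomes white-like. Transcription factors of the MiT family, TFEB and TFE3, bind promoters of autophagy and lysosomal genes at E-boxes of the CLEAR type, and the clock proteins CLOCK and BMAL1 bind E-boxes too.

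Promoter sequence is shown for 3 members, chosen after their values were seen. Atg3 and Bnip3 are members with a time-of-day pattern that hold an E-box, and Gabarapl1 had the second largest amplitude of the list and held none of the 6 motifs searched. A RefSeq promoter of build GRCm38.p6, from 250 bases before to 50 bases after a start, was at hand for 31 of the 38 members, and only bases before both the RefSeq and the GENCODE start are printed. Capitals mark motif matches on either strand, which are CACGTG for the E-box and TCACGTGA for the longer CLEAR core around it. The Atg3 stretch is chr16:45158579-45158784 on the plus strand, the Bnip3 stretch is chr7:138909520-138909756 on the minus strand, and the Gabarapl1 stretch is chr6:129532942-129533159 on the plus strand.
Atg3: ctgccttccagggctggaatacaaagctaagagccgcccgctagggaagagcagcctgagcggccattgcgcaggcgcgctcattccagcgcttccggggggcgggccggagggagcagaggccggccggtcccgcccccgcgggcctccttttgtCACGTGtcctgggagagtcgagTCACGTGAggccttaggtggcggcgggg
Bnip3: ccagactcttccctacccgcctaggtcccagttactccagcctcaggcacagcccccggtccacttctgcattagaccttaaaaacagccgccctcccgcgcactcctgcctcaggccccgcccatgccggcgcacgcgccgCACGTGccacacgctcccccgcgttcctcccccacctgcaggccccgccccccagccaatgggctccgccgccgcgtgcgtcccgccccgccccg
Gabarapl1: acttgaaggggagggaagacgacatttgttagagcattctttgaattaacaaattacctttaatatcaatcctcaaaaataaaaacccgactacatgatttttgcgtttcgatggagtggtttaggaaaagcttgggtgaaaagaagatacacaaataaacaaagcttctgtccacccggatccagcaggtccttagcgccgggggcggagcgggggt

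In Atg3 the E-boxes began at -94 and -71 from the RefSeq start, and the one at -71 lay inside a CLEAR core that began at -72. In Bnip3 the E-box began at -108. Of the 31 members, 5 held CACGTG (Atg3, Atg5, Atg7, Atg14 and Bnip3), which is 16.1% beside 7.15% of all 32851 mouse promoters of 300 bases. A member was counted if any of its promoters held the letters, and some members, such as Atg4a, have more than a single promoter. The share of all promoters counts each promoter, so the shares of members and of promoters here are not like for like. The RefSeq start of Atg7 lies inside the GENCODE gene. Of the 5 members with CACGTG, Atg3, Atg7 and Bnip3 had a 24 h cosine by the edgeR test given below. Atg5 and Atg14 did not (edgeR adjusted p = 0.197 and 0.811). With sequencing lane in the model, Atg3 alone passed, with 0.0594 for Atg7 and 0.777 for Bnip3. Whether an E-box goes with a time-of-day pattern was not tested. The CLEAR core was in 1 member, Atg3, and in 0.974% of all promoters. The cAMP response element TGACGTCA was in 2 members (Atg5 and Atg16l2) and in 1.79% of all promoters. No member held the D-box TTATGTAA, the ROR element core TAGGTCA or the FoxO site TGTTTAC, which were in 0.938%, 2.61% and 3.65% of all promoters. A match is a run of letters and says nothing of whether a factor was bound there, and no match says only that the letters are not in this window.

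Libraries held between 16300770 and 18254659 counts (median 17418661), and the member with the fewest reads, Atg16l2, had at least 68 counts in every library. All 10 brown adipocyte markers, Ucp1 among them, were detected, and their summed level ran from 10200 to 15300 CPM (counts scaled to a common library total) over the libraries. Of 13 clock genes, 13 passed the test of a 24 h cosine. The summed level of 10 skeletal muscle markers ran from 2.51 to 6490 CPM, with 15 libraries over 1000 CPM and 4 libraries (ZT3 replicate 2, ZT12 replicate 2, ZT15 replicate 1 and ZT18 replicate 4) over 10 times the median of 412 CPM. By edgeR, no member was called as changing with the muscle level between mice of the same time (0 of 38, lowest adjusted p = 0.208), where 3.18% of all tested genes were. An unadjusted p under 0.05 was found for 3 members there, beside 9.8% of all tested genes. The libraries of ZT0, ZT3 and ZT6 shared sequencing lane 2, those of ZT9, ZT12 and ZT15 lane 3, and those of ZT18 and ZT21 lane 4, so that differences in lane and in time cannot be told apart between lanes. Cosine results are therefore also given with lane in the model. Each lane holds neighbouring times, so that lane in the model also takes up part of any 24 h wave. Whether a call lost with lane was a lane difference or such a wave cannot be told apart. In whole tissue, fewer cells of a type and less RNA per cell cannot be told apart.

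Levels can be compared between genes only per length, here as CPM per kb of exon, averaged over the 32 mice. Levels spanned from 0.936 CPM per kb for Atg16l2 to 109 CPM per kb for Gabarap. After Gabarap came Map1lc3a at 103 CPM per kb, Bnip3 at 101 CPM per kb and Gabarapl1 at 54.0 CPM per kb. The 3 cargo receptors came next, with Sqstm1 (p62) at 41.7 CPM per kb, Optn at 31.4 CPM per kb and Nbr1 at 21.4 CPM per kb. The other ATG8 genes, Map1lc3b (18.9 CPM per kb) and Gabarapl2 (12.1 CPM per kb), and the other mitophagy receptor, Bnip3l (18.1 CPM per kb), had means below those of the cargo receptors. Exon length here joins the exons of all annotated isoforms, 7517 bases for Map1lc3b and 1181 bases for Map1lc3a, and the ranks depend on it. Without scaling to length, Map1lc3b averaged 142 CPM, Map1lc3a 122 CPM and Sqstm1 140 CPM. The 5 initiation genes lay between 4.01 CPM per kb (Rb1cc1) and 12.1 CPM per kb (Ulk1). The 5 nucleation genes lay between 1.94 CPM per kb (Uvrag) and 8.69 CPM per kb (Becn1). Among the conjugation genes, Atg3 was the highest at 13.0 CPM per kb and Atg16l2 the lowest. The transcription factors Tfe3 and Tfeb stood at 4.71 and 2.86 CPM per kb. The ranges of Gabarap, Map1lc3a and Bnip3 over the mice overlapped, that of Gabarapl1 reached into that of Bnip3, and Sqstm1 overlapped Optn as Optn did Nbr1. Gabarapl1 also overlapped Sqstm1, and both Map1lc3b and Bnip3l overlapped Nbr1, so that neighbouring ranks are not firm.

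**Figure D1:**
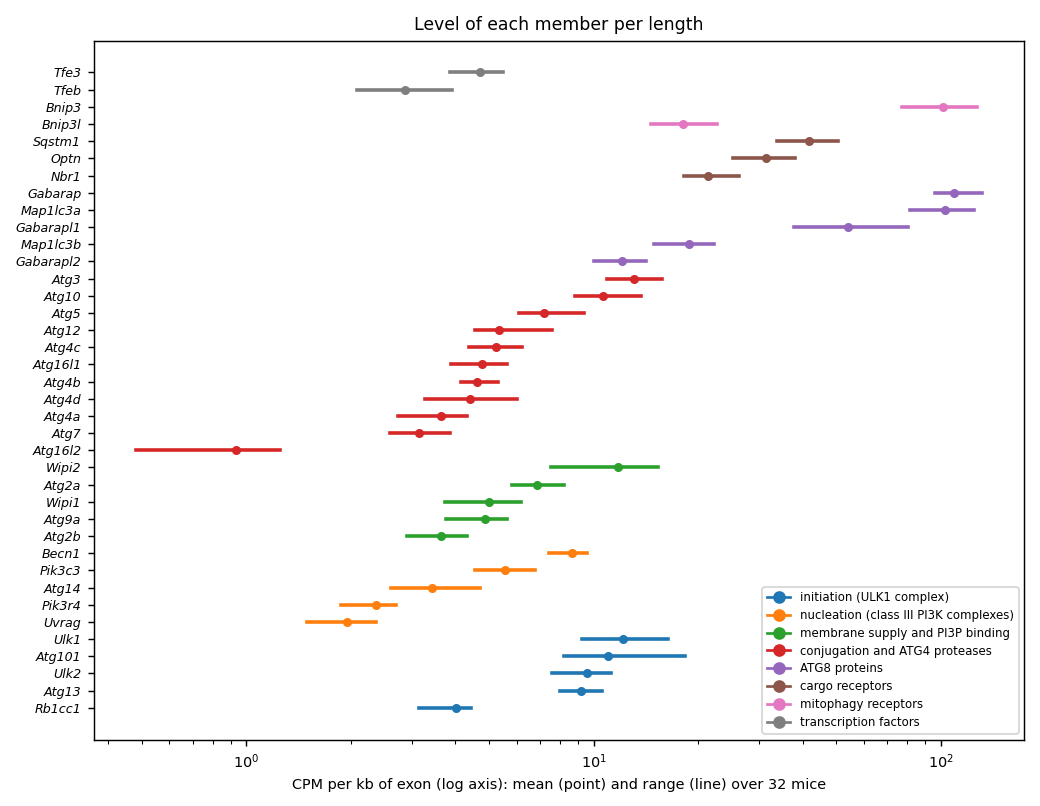
Level of each of the 38 members in CPM per kb of exon, on a log axis. Points are means over 32 mice and lines run from the lowest to the highest mouse, coloured by role. Gabarap (109), Map1lc3a (103) and Bnip3 (101) are the highest and Atg16l2 (0.936) is the lowest.

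The first question was which members followed a 24 h rhythm. The adjusted p-values given here are from edgeR's quasi-likelihood test, adjusted by Benjamini-Hochberg (BH) over all tested genes, with a threshold of 0.05. A 24 h cosine was detected in 13 of 38 members (34.2%), beside 36.1% of all tested genes. Any difference between the 8 time points was detected in 15 members, beside 39.8% of all tested genes. In all, 18 members passed at least 1 of these tests and 10 passed both. JTK_CYCLE, the rank test the study used, had P under 0.05 for 16 members (42.1%), beside 36.9% of all tested genes, and for 11 members after BH adjustment, beside 27.5%. All 13 members with a cosine were among those 16. The shares of the members were close to those of all genes. Most pairs of times set side by side below are those of highest and lowest mean, picked from 8 after the values were seen. A lack of overlap between such pairs is therefore no test, and its share over all genes was not counted. Members not called showed it too, such as Ulk2 (ZT21 and ZT0) and Optn (ZT18 and ZT21). Their edgeR adjusted p for the time points was 0.484 and 0.49.

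The changes were small. The cosine amplitude is the distance from the mean to the peak of the fitted curve, on the log2 CPM scale. Its median was 0.085 over the 38 members, 0.139 over all tested genes and 0.11 over the 8741 tested genes within the members' range of mean CPM, of which 42.9% passed the cosine test. Members that passed had a median amplitude of 0.12, against 0.216 for all genes that passed, and 3 of them were above 0.2. Their fitted fold from trough to peak ran from 1.14 to 1.66. Peaks were spread over the day, from ZT2.4 to ZT22.2, with 7 in the light and 6 in the dark, where 50.9% of all genes that passed peaked before ZT12.

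**Figure D2:**
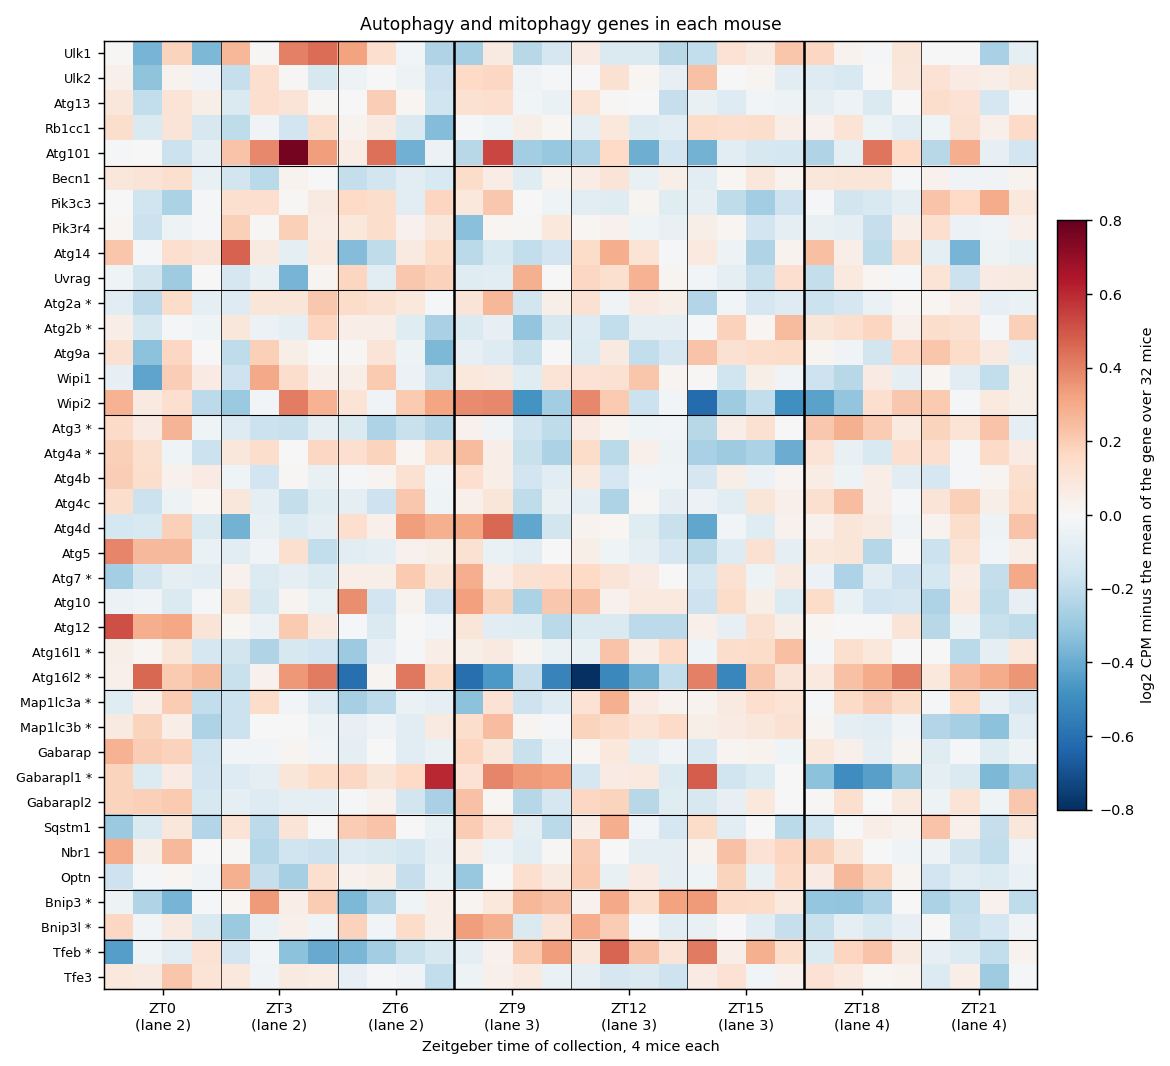
Each of the 38 members (rows, in blocks by role from initiation at the top to transcription factors at the bottom) in each of 32 mice (columns, 4 per time point, thick lines between lanes), as log2 CPM minus the mean of the gene. Asterisks mark the 13 members with a 24 h cosine. Atg16l2, Gabarapl1 and Tfeb had the largest fitted amplitudes of these 13, and most rows stay pale.

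The plot of amplitude against peak time places Gabarapl1, Bnip3l, Atg7, Bnip3 and Map1lc3b in the second part of the light phase, Tfeb and Atg16l1 early in the dark phase, and Map1lc3a, Atg3, Atg2b and Atg16l2 later in the dark phase.

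**Figure D3:**
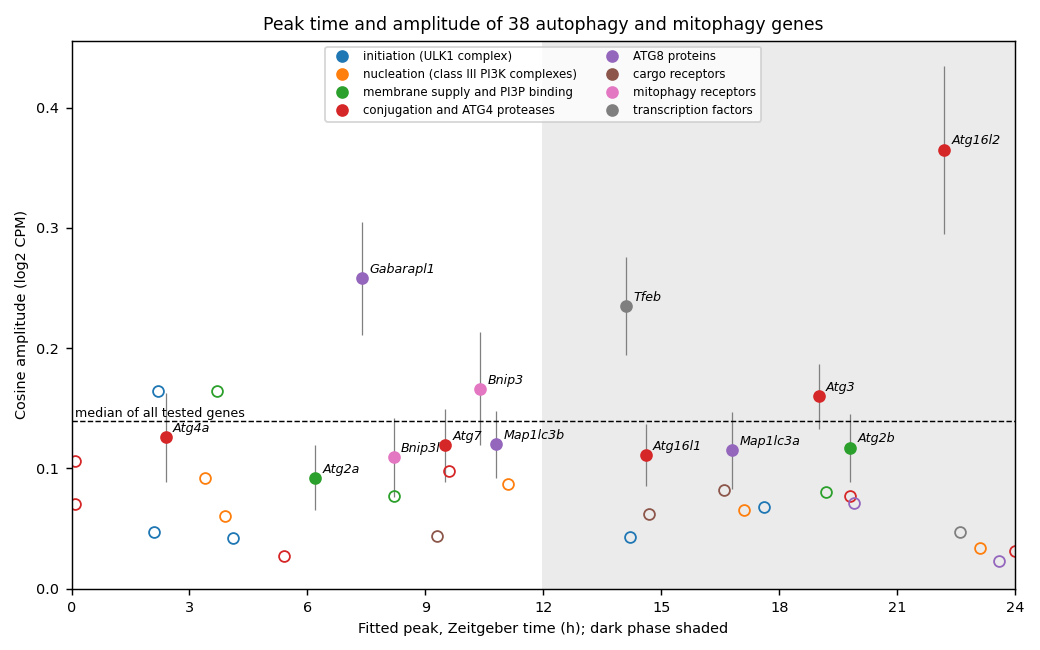
Cosine amplitude (log2 CPM) against fitted peak time (ZT, h) for the 38 members, coloured by role. Filled points passed the cosine test and are named, with bars of 1 SE, open points did not, and the dashed line is the median of all tested genes (0.139). Atg16l2 is the highest at 0.36, and 13 filled points spread over the day.

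Of the initiation genes, none of the 5 had a detected cosine or difference between time points by edgeR, and an unadjusted p under 0.05 was reached by 0 of them for the cosine and 2 for the time points. Over all 38 members and all tested genes, that unadjusted limit was reached for the cosine by 17 members and by 46.8% of genes. For the time points it was reached by 20 members, and the share over all genes was not counted. Ulk1 and Ulk2 encode the kinases, Atg13, Rb1cc1 (FIP200) and Atg101 their partners. Ulk1 averaged 78.7 CPM, with time point means from 71.0 CPM at ZT9 to 95.3 CPM at ZT3, and its adjusted p was 0.0619 for the time points. Atg101 had the highest mean at ZT3 (23.5 ± 4.04 CPM, SD, n = 4) and the lowest at ZT15 (15.2 ± 1.32 CPM), without overlap of the mice, yet its edgeR adjusted p was 0.111 for the cosine and 0.0857 for the time points.

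Of the 5 nucleation genes, none had a detected cosine by edgeR (2 at an unadjusted p under 0.05) and 2 differed between time points. Pik3c3 (VPS34) encodes the lipid kinase of the class III PI3K complexes. At ZT21 its 4 mice had 26.0, 27.4, 28.8 and 30.3 CPM, and at ZT15 they had 20.3, 21.3, 21.9 and 23.3 CPM. All mice of ZT21 were above all of ZT15, and a second stretch of high means lay at ZT3 to ZT9 (25.8 to 26.4 CPM). The difference between time points had an edgeR adjusted p of 8.74e-04, while the cosine, with a fitted peak at ZT3.4, had 0.0824. By JTK the P of Pik3c3 was 0.00241, and 0.013 after BH adjustment. Between the ZT18 and ZT21 mice of lane 4, it was the only member called (edgeR adjusted p = 0.0367, where 4.48% of all tested genes were called), and that call was lost without any 1 of 7 of these 8 libraries. With lane in the model its cosine passed (edgeR adjusted p = 9.88e-04).

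Becn1 encodes Beclin 1, the scaffold of the same complexes. Its mean was highest at ZT18 (64.3 ± 2.23 CPM) and lowest at ZT6 (55.7 ± 1.63 CPM, SD, n = 4), without overlap of the mice at these times. The time point test gave an edgeR adjusted p of 0.0459, which rose to 0.116 without ZT6 replicate 1, and 24 of the 32 fits that left out 1 library missed the threshold. Reads of Becn1 and of Cntd1 on the opposite strand cannot be told apart if the counting ignored the strand, which is not stated, as 43.9% of its exonic bases overlap. Pik3r4 (VPS15), Atg14 and Uvrag, the regulatory members, had edgeR adjusted p between 0.0908 and 0.210 for the time points. Of these, Pik3r4 alone had a JTK P under 0.05 (0.0308, and 0.0919 after BH adjustment).

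Of the 5 genes for membrane supply and PI3P binding, 2 had a cosine, those of the ATG2 lipid transfer proteins. Atg2a peaked at ZT6.2 ± 1.1 (SE) with an amplitude of 0.09, and its means ran from 48.4 ± 2.87 CPM at ZT15 to 55.9 ± 2.77 CPM at ZT6. Atg2b peaked at ZT19.8 ± 0.9 with an amplitude of 0.12, and its means ran from 43.7 ± 3.22 CPM at ZT9 to 52.7 ± 4.73 CPM at ZT15 (SD, n = 4). The edgeR adjusted p of the cosine was 0.0251 for Atg2a and 0.00701 for Atg2b, and with lane in the model it was 0.0557 and 0.134. Whether the 2 genes differ from each other in phase was not tested. Wipi1 and Wipi2, which bind PI3P, and the lipid scramblase gene Atg9a had no detected cosine. Wipi2 varied widely among mice, with 93.1 ± 12.3 CPM at ZT15 and 136 ± 13.5 CPM at ZT6, and its edgeR adjusted p was 0.139 for the cosine. A same-strand gene, Gm29253, shares 31.8% of the exonic bases of Atg9a, so that reads there may be split or lost.

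The conjugation systems and their ATG4 proteases held 11 members, of which 5 had a cosine and 6 differed between time points. Atg3 encodes the E2-like enzyme that carries ATG8 proteins to their lipid. Its 4 mice at ZT18 had 43.2, 47.2, 47.4 and 49.8 CPM, and at ZT6 they had 34.4, 34.9, 36.1 and 37.7 CPM. The lowest mouse of ZT18 was above the highest of ZT6, and the means at ZT0 and ZT21 (44.4 and 44.3 CPM) were also high. The cosine had an amplitude of 0.16 ± 0.027 (SE), a peak at ZT19.0 ± 0.7 and an edgeR adjusted p of 2.25e-04, which stayed below the threshold without any 1 library. Atg3 also differed among the time points of lane 2, where ZT0 was above ZT3 and ZT6 (edgeR adjusted p = 0.0262). With lane in the model its cosine had an adjusted p of 0.0409, which went to 0.114 without ZT0 replicate 3 and missed the threshold in 10 of 32 such fits.

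Atg7 encodes the E1-like enzyme that activates both ubiquitin-like systems. The mice of ZT9 had 22.8, 23.8, 24.0 and 26.7 CPM and those of ZT0 had 18.0, 19.7, 20.5 and 20.7 CPM, without overlap. The cosine peaked at ZT9.5 ± 1.0 with an amplitude of 0.12 (edgeR adjusted p = 0.0150), and 0.0594 with lane in the model. The fitted peaks of Atg7 and Atg3, which act one after the other, thus lay at ZT9.5 and ZT19.0.

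Atg16l2 encodes a relative of ATG16L1 whose role in autophagy is less clear, and it had the largest amplitude and the lowest level of the list. Its 4 mice had 4.08, 5.35, 5.89 and 6.69 CPM at ZT12, 5.01, 5.26, 5.56 and 6.75 CPM at ZT9, and 8.10, 9.05, 9.47 and 10.2 CPM at ZT18. The mice of ZT9 and ZT12 were all below those of ZT0, ZT18 and ZT21. The amplitude was 0.36 ± 0.07 (SE), a fitted fold of 1.66, with a peak at ZT22.2 ± 0.7 and an edgeR adjusted p of 0.00116. With lane in the model the adjusted p was 0.10. Atg16l1, the subunit that brings the ATG12-ATG5 conjugate to the membrane, peaked at ZT14.6 ± 0.9 with an amplitude of 0.11 (edgeR adjusted p = 0.00672, and 0.198 with lane).

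Atg12 encodes the ubiquitin-like protein that is joined to ATG5. At ZT0 its mice had 44.2, 50.2, 50.8 and 58.7 CPM, and at ZT12 they had 35.5, 35.5, 37.9 and 37.9 CPM. All mice of ZT0 were above all of ZT12, and the means fell from 51.0 CPM at ZT0 through 42.9 CPM at ZT3 to 40.0 CPM at ZT6. The time points differed with an edgeR adjusted p of 1.68e-04, the cosine had 0.0513, and the time points of lane 2 alone had 0.0413. With lane in the model the cosine of Atg12 passed (adjusted p = 0.0196, and 0.0565 without ZT0 replicate 1).

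Atg4a encodes a protease that trims ATG8 proteins. Its mice had 7.27, 7.86, 7.99 and 8.04 CPM at ZT15 and 9.70, 10.5, 10.6 and 10.9 CPM at ZT6. The mice of ZT15 lay close together and below all of ZT6. The cosine peaked at ZT2.4 ± 1.1 with an amplitude of 0.13 and an edgeR adjusted p of 0.0412, which was 0.120 with lane in the model, 0.0799 with the muscle level in the model and 0.112 without the 4 libraries of highest muscle level. It missed the threshold in 11 of 32 fits that left out 1 library, at most 0.0906 without ZT15 replicate 4. Atg4b, Atg4c and Atg4d, the other ATG4 proteases, and Atg10, the E2-like enzyme of the ATG12 system, had no detected cosine or difference between time points. Atg5 had neither, and was named as lower at ZT12 by the direct comparison given below.

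Among the ATG8 proteins, which coat the autophagosome and bind receptors, 3 of 5 had a cosine. Gabarapl1 was the member with the second largest amplitude. Its mice had 116, 134, 136 and 140 CPM at ZT9, and 75.8, 79.2, 85.0 and 87.9 CPM at ZT18. All mice of ZT9 were above all of ZT18, and at ZT6 1 mouse stood apart at 162 CPM while the others had 114 to 120 CPM. The amplitude was 0.26 ± 0.047 (SE), a fitted fold of 1.43, with a peak at ZT7.4 ± 0.7 and an edgeR adjusted p of 3.85e-04, which went to at most 0.00108 without 1 library, the one at 162 CPM. With lane in the model the adjusted p was 0.141, and it missed the threshold in 31 of 32 fits without 1 library. It was 0.00634 without ZT15 replicate 1, which had 150 CPM and a high muscle level. The other mice of ZT15 had 95.9 to 107 CPM. A gene on the opposite strand, 1700101I11Rik, overlaps 28.3% of its exonic bases.

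Map1lc3b (LC3B) had 152, 157, 157 and 159 CPM in the mice of ZT12 and 113, 118, 120 and 133 CPM in those of ZT21. The groups did not overlap, and the mice of ZT12 lay within a narrow span. The cosine peaked at ZT10.8 ± 0.9 with an amplitude of 0.12 (edgeR adjusted p = 0.00789, and 0.455 with lane). Map1lc3a (LC3A) peaked at ZT16.8 ± 1.1 with an amplitude of 0.12, and its means ran from 109 ± 7.84 CPM at ZT6 to 132 ± 10.7 CPM at ZT12 (SD, n = 4). The edgeR adjusted p of its cosine was 0.0237, with 0.114 with lane and 0.0574 with the muscle level in the model.

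Gabarap, the highest member per kb, had 180, 228, 230 and 243 CPM in the mice of ZT0 and 187, 188, 195 and 198 CPM in those of ZT21. These were the time points of highest and lowest mean, and they overlapped. Its amplitude was 0.02 ± 0.026 (SE), and the edgeR adjusted p was 0.735 for the cosine and 0.318 for the time points. Gabarapl2 had adjusted p of 0.241 and 0.433.

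None of the 3 cargo receptors had a detected cosine by edgeR, and 0 had an unadjusted p under 0.05. Nbr1, which binds ubiquitin-tagged cargo, differed between time points. Its mice had 146, 151, 175 and 180 CPM at ZT0 and 125, 130, 131 and 147 CPM at ZT3, with 1 mouse of ZT3 above the lowest of ZT0. At ZT15 the mice had 149, 158, 165 and 172 CPM, all above those of ZT3, which gave 2 stretches of high level in the day. The edgeR adjusted p was 0.00727 for the time points, 0.0487 within lane 2, 0.120 for the cosine and 0.0162 for the cosine with lane in the model. By JTK its P was 0.00448, and 0.0209 after BH adjustment. Sqstm1 (p62), the receptor whose protein is degraded along with its cargo, averaged 140 CPM with an amplitude of 0.04 (edgeR adjusted p = 0.621), and Optn (optineurin) averaged 118 CPM with an amplitude of 0.06 (0.364).

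Both mitophagy receptors had a cosine with a fitted peak in the second part of the light phase. Bnip3, which tethers mitochondria to LC3, had 232, 250, 280 and 284 CPM in the mice of ZT12 and 182, 183, 191 and 226 CPM in those of ZT18. All mice of ZT12 were above all of ZT18. The means at ZT3, ZT9, ZT12 and ZT15 were from 253 to 261 CPM and those at ZT0, ZT6, ZT18 and ZT21 from 196 to 206 CPM, so that ZT6 did not follow a single wave. The cosine peaked at ZT10.4 ± 1.1 with an amplitude of 0.17 ± 0.047 (SE) and an edgeR adjusted p of 0.0176, and 0.777 with lane in the model. Gm45507 on the opposite strand overlaps 22.3% of its exonic bases. Bnip3l (NIX), the close relative of Bnip3, peaked at ZT8.2 ± 1.2 with an amplitude of 0.11 (edgeR adjusted p = 0.0233, 0.260 with lane, and 0.0542 without ZT9 replicate 1).

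Tfeb and Tfe3 encode transcription factors for autophagy and lysosomal genes. The mice of ZT15 had 16.7, 17.7, 19.5 and 21.4 CPM of Tfeb, and those of ZT6 had 12.4, 13.2, 14.2 and 14.6 CPM. All mice of ZT15 were above all of ZT6. The amplitude was 0.23 ± 0.041 (SE), a fitted fold of 1.39, with a peak at ZT14.1 ± 0.7 and an edgeR adjusted p of 2.02e-04, which was 0.378 with lane in the model. Tfe3 had 45.8, 46.1, 46.8 and 50.7 CPM in the mice of ZT0 and 38.8, 39.5, 40.2 and 41.3 CPM in those of ZT12, without overlap. Its time points differed (edgeR adjusted p = 0.0144) while its cosine was not detected (0.299).

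**Figure D4:**
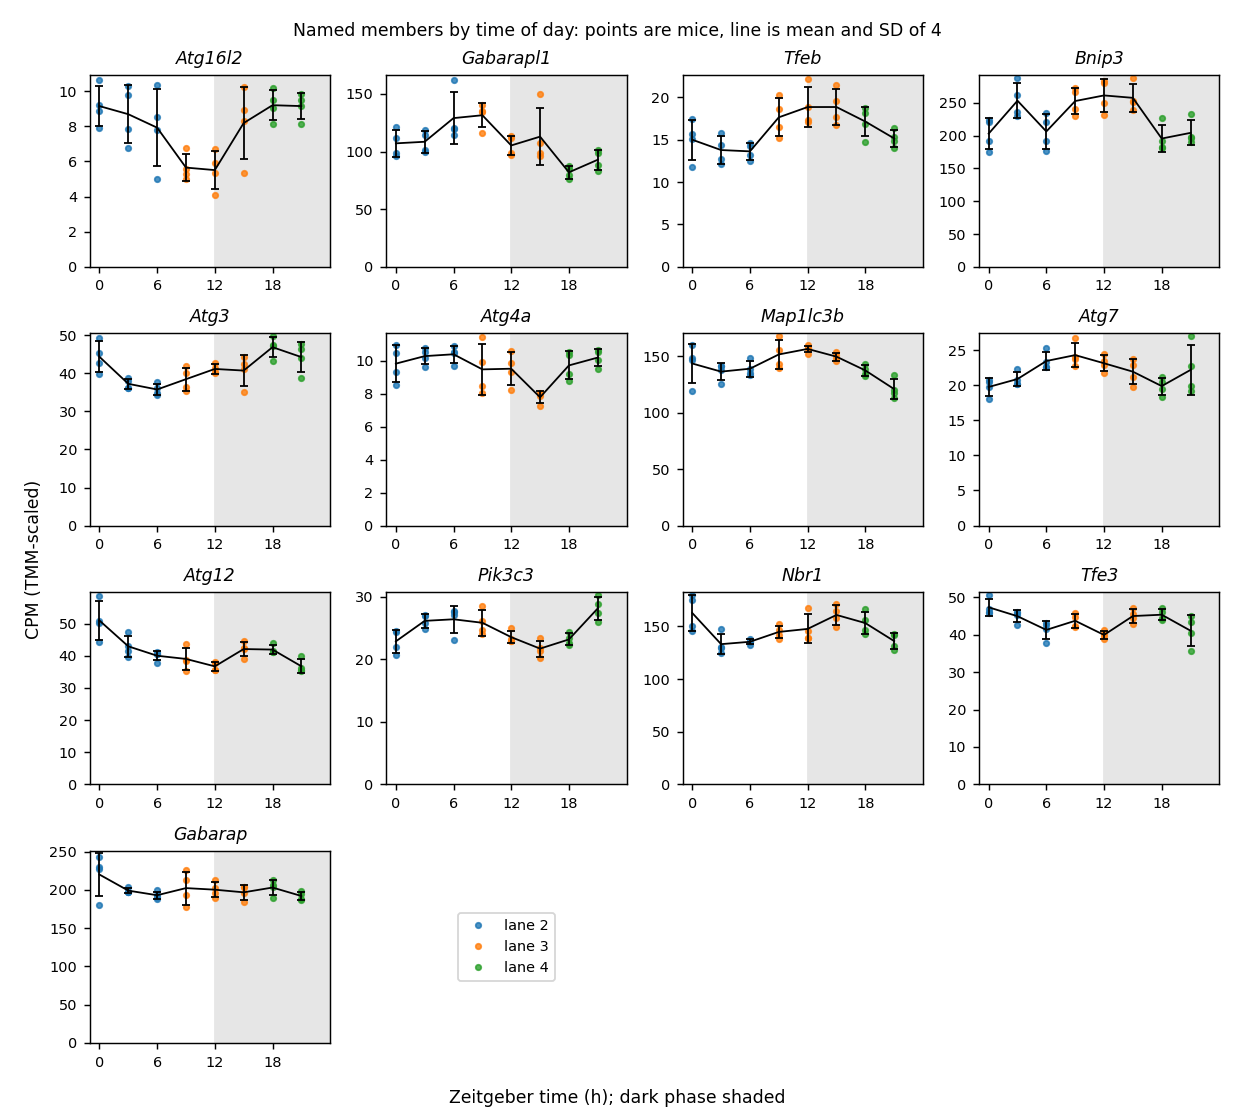
TMM-scaled CPM against Zeitgeber time (h) for 13 members. Points are mice, coloured by sequencing lane, lines join the means with bars of 1 SD over 4 mice, axes start at 0 and the dark phase is shaded. Gabarapl1 is lowest at ZT18 (82.0 CPM), Atg16l2 at ZT12 (5.50 CPM) and Tfeb at ZT6 (13.6 CPM), while Gabarap stays between 192 and 220 CPM.

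Because time and lane went together, the cosine was also fitted with lane as a factor. It was then detected in 4 of 38 members (Pik3c3, Atg3, Atg12 and Nbr1), beside 17.2% of all tested genes, and in 2 members without ZT0 replicate 1. Of these 4, Atg3 alone had also passed without lane. A call with lane rests on differences between times within lanes. Without lane, Pik3c3, Atg12 and Nbr1 had edgeR adjusted p of 0.0824, 0.0513 and 0.120 for the cosine. Within lane 2, the time points ZT0, ZT3 and ZT6 differed in 3 members (Atg3, Atg12 and Nbr1), beside 13.3% of all tested genes. All 3 were highest at ZT0. This count ran from 0 (without ZT0 replicate 1 or 3) to 7 (without ZT0 replicate 4) when 1 library was left out, and was 1 without any 1 of 6 further libraries, so that the lane 2 calls of Atg3, Atg12 and Nbr1 did not hold in every such fit. Within lane 3, over ZT9, ZT12 and ZT15, no member was called by edgeR, beside 1.93% of all tested genes, and 7 members had an unadjusted p under 0.05, beside 16.0%. With all libraries, Bnip3, Gabarapl1, Tfeb and Map1lc3b were thus called in the fit across lanes and in none of the fits within a lane. Gabarapl1 also passed the cosine with lane in the model once ZT15 replicate 1 was left out (edgeR adjusted p = 0.00634).

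Lights off and lights on were also set against each other directly, ZT12 against ZT0. There were 2 members higher at ZT12, beside 7.71% of all tested genes, and 4 lower, beside 8.15%. Bnip3 was higher at ZT12 by 0.36 ± 0.10 on the log2 scale (SE), with an edgeR adjusted p of 0.0158, and no mouse of ZT0 reached the lowest of ZT12. Its call was lost in 4 of 32 fits without 1 library, at most 0.0693 without ZT0 replicate 3. Tfeb was higher by 0.33 ± 0.11 (edgeR adjusted p = 0.0495), and its call was lost in 24 of 32 fits without 1 library, at most 0.196 without ZT0 replicate 1. Atg12 fell by 0.47 (SE 0.07, edgeR adjusted p = 5.7e-05), Atg16l2 fell by 0.73 (SE 0.19, 0.00884) and Tfe3 fell by 0.25 (SE 0.06, 0.00572), and these calls stood without any 1 library. Atg5, the partner of ATG12, fell by 0.27 (SE 0.09, edgeR adjusted p = 0.0419), with a mean of 19.7 ± 2.46 CPM at ZT0 and 16.3 ± 0.861 CPM at ZT12, and 0.157 without ZT0 replicate 1. Of the ATG12-ATG5-ATG16L complex, Atg12, Atg5 and Atg16l2 were thus lower at ZT12 and Atg16l1 had an adjusted p of 0.461. Since ZT0 and ZT12 were run on lanes 2 and 3, this contrast cannot be told apart from the lane. Summed markers of other cell types also differed in level between these times. All 5 stromal markers were detected, and their sum was 319 to 508 CPM at ZT0 (median 421) and 554 to 768 CPM at ZT12 (median 647), without overlap. The sum of 8 macrophage and leukocyte markers, of which 6 averaged at least 1 CPM, was 76.2 to 141 CPM at ZT0 and 130 to 227 CPM at ZT12, and that of 5 endothelial markers was 711 to 1010 CPM at ZT0 and 606 to 716 CPM at ZT12. Within lane 2, the stromal sum was 611 to 976 CPM at ZT3, above all mice of ZT0, and 496 to 976 CPM at ZT6. There the macrophage and leukocyte sum was 135 to 215 CPM at ZT3 and 119 to 170 CPM at ZT6. The endothelial sums of ZT3 (923 to 952 CPM) and ZT6 (773 to 1050 CPM) overlapped those of ZT0. The part of these cell types in the ZT12 against ZT0 results, of members and of the lysosomal genes below, was not tested. Nor was their part in the lane 2 calls.

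The labels do not give what single mice had eaten. The slope of each gene on log2 CPM of Pck1, a gene known to rise in fasting and to be lowered by insulin, was tested between mice of the same time. No member was called by edgeR after adjustment (0 of 38, beside 0.993% of all tested genes), and 5 had an unadjusted p under 0.05, beside 14.0% of all tested genes. The smallest was Nbr1, with a slope of -0.13 ± 0.04 log2 CPM per log2 CPM of Pck1 (edgeR adjusted p = 0.077). Without ZT9 replicate 3, 1 member was called.

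Genes around the core list were taken from 5 lists of 106 genes, of which 105 were tested. A cosine was detected in 42 of 105 (40.0%), beside 36.1% of all tested genes, and with lane in the model in 23 of 105, beside 17.2%. Among lysosomal genes, 16 of 30 passed, and their peaks lay between ZT5.9 and ZT12.7, with 14 in the light phase and 2 in the dark. Of the 30, 5 passed with lane in the model. At ZT12 against ZT0, 6 of the 30 lysosomal genes were higher by edgeR, beside 7.71% of all tested genes, and 0 lower, beside 8.15%. At an unadjusted p under 0.05, 0 were lower too, but the share of all genes at that limit was not counted. Npc1, which exports cholesterol from lysosomes, had its highest mean at ZT6 (108 ± 16.8 CPM) and its lowest at ZT18 (50.2 ± 6.90 CPM, SD, n = 4), with an amplitude of 0.37 and an edgeR adjusted p of 9.54e-04. Ctsf, a cathepsin, ran from 49.3 ± 2.57 CPM at ZT0 to 71.3 ± 1.45 CPM at ZT12 (amplitude 0.25, edgeR adjusted p = 1.15e-06). With lane in the model, Npc1 and Ctsf had edgeR adjusted p of 0.0129 and 0.0248.

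Of 26 mTORC1 and AMPK genes, which hold autophagy in check or release it, 8 had a cosine, and 5 with lane in the model. Ddit4 (REDD1), an inhibitor of mTORC1, ran from 9.30 ± 2.74 CPM at ZT0 to 40.9 ± 8.70 CPM at ZT12 (amplitude 0.67, peak ZT10.8, edgeR adjusted p = 7.78e-05, and 0.0162 with lane). Deptor, a subunit that inhibits mTOR, peaked at ZT1.3 (amplitude 0.39, edgeR adjusted p = 0.00512, and 0.304 with lane). Fnip1, the folliculin partner, peaked at ZT10.8 (amplitude 0.32, edgeR adjusted p = 7.43e-05, and 0.0232 with lane). Prkab1, an AMPK subunit, was the 1 gene of the 105 called for a slope on Pck1 between mice of the same time, beside 0.993% of all tested genes. It was lower where Pck1 was higher (slope -0.61 ± 0.13, edgeR adjusted p = 0.0189). In this list 2 genes, Rragd and Prkab2, changed with the muscle level, beside 3.18% of all tested genes.

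Of 16 other mitophagy genes, 6 had a cosine, and 4 with lane in the model. Tomm20, a mitochondrial import receptor, had 53.9 ± 4.72 CPM at ZT12 and 42.2 ± 5.28 CPM at ZT0 (SD, n = 4), and peaked at ZT12.4 (amplitude 0.18, edgeR adjusted p = 7.83e-04, and 0.794 with lane). Pgam5, a mitochondrial phosphatase, peaked at ZT18.3 (amplitude 0.13, edgeR adjusted p = 0.00557, and 0.297 with lane).

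Of 28 other autophagosome and fusion genes, 10 had a cosine, and 7 with lane in the model. Nrbf2, which binds the ATG14 form of the PI3K complex, averaged 12.8 ± 3.10 CPM at ZT6, the lowest of lane 2, where ZT0 had 26.1 ± 4.85 CPM and ZT3 had 26.9 ± 3.91 CPM (SD, n = 4). Its cosine peaked at ZT20.2 (amplitude 0.34, edgeR adjusted p = 0.0197, and 0.00217 with lane). Tex264, a receptor for autophagy of the endoplasmic reticulum, peaked at ZT10.8 (amplitude 0.24, edgeR adjusted p = 1.53e-07, and 0.015 with lane), and Tecpr1, a tethering factor at the lysosome, at ZT8.6 (amplitude 0.23, 3.39e-04, and 0.00498 with lane). Of 5 tested FoxO and MiT relatives, 2 had a cosine, and 2 with lane in the model. Foxo1, a transcription factor held back by insulin, ran from 45.5 ± 4.45 CPM at ZT0 to 99.4 ± 2.53 CPM at ZT12 (peak ZT10.5, edgeR adjusted p = 2.76e-05, and 0.00879 with lane). Zkscan3, a repressor of autophagy genes, peaked at ZT19.7 (amplitude 0.23, edgeR adjusted p = 0.00276, and 9.26e-04 with lane).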

How the data were processed

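RNA was measured in 32 libraries, 1 per mouse, 4 at each of 8 time points, as stranded paired-end reads. The deposited values are raw read counts per Ensembl gene. Per the study's methods, the authors checked quality with MultiQC, mapped reads to mm10 with GSNAP and counted them with HTSeq (version 0.6.1). A strand setting for the counting is not given in the sources used here. No normalization had been applied, and differences in composition between libraries were scaled here. Lengths, coordinates and overlaps are of GENCODE vM21 (GRCm38), not the release counted with.

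Counts were filtered with filterByExpr by time point and TMM-scaled in edgeR 4.0.16 (R 4.3.3), and tested with its quasi-likelihood test, BH-adjusted over all tested genes, at 0.05: a 24 h cosine, any difference between time points over all libraries and within each lane, the cosine beside lane, ZT12 against ZT0, and slopes on Pck1 and on log2(muscle marker CPM + 1) within time points. JTK_CYCLE was reimplemented with 21 and 24 h periods and 15 templates per gene. Amplitudes and peaks come from least squares on log2 CPM (prior count 2). Fits and JTK were tested on simulated data. DESeq2 1.42.0 was an alternative. Total counts varied by little, so depth hardly differs between libraries. No 2 libraries of a time point agreed within sampling noise (lowest mean chi-square per gene 7.37).

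The members, lists and tests were chosen with earlier results of these data known. Values per mouse are given for the 8 members of largest amplitude among those past the cosine threshold with at least 1 CPM, up to 4 others of smallest adjusted p between time points, up to 3 past the Pck1 slope, and the lowest and highest member per kb, with up to 3 genes per pathway list by amplitude, of which some are not reported here.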

Additional observations from a re-analysis of the deposited data

Results flagged for a closer look

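Single mice stood apart from the other 3 of their time point in 5 of 104 groups (13 members at 8 time points), by a gap to the nearest mouse larger than Dixon's 95% critical value for 4 samples. Chance flags about 1 in 20 such groups. In Gabarapl1, ZT6 replicate 4 had 162 CPM and the others 114 to 120 CPM. In Atg12, ZT18 replicate 4, a library of high muscle marker level, had 44.1 CPM and the others 41.1 to 41.5 CPM. In Pik3c3, ZT6 replicate 3 had 23.2 CPM and the others 27.1 to 27.8 CPM, and ZT12 replicate 3 had 25.0 CPM and the others 23.0 to 23.2 CPM. In Gabarap, ZT3 replicate 3 had 204 CPM and the others 197 to 198 CPM. The cosine of Gabarapl1 and the time point differences of Atg12 and Pik3c3 were called without any 1 library.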

How the results depend on the processing

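The count of members with a 24 h cosine, 13, ran from 10 (no filter on low counts) to 15 (library size alone) over the alternatives, and from 12 to 15 without 1 library. The count of members that differed between time points, 15, was 9 without the filter and from 12 to 18 without 1 library. The count by JTK P ran from 14 to 18 without 1 library. The cosine beside lane had from 2 to 5 members without 1 library, with 2 without ZT0 replicate 1. Within lane 2, the 3 calls became 8 in the model of all 32 libraries, 1 with library size alone and 1 with the replicate block. They ran from 0 to 7 without 1 library: 0 without ZT0 replicate 1 or 3, 7 without ZT0 replicate 4, and 1 without ZT0 replicate 2, ZT3 replicate 2 or 4, or ZT6 replicate 1, 3 or 4. Within lane 3, the count was 1 in the model of all 32 libraries and 0 to 1 without 1 library (1 without ZT15 replicate 1). Within lane 4, it was 0 with the replicate block and 0 to 1 without 1 library (0 without any but ZT21 replicate 4). At ZT12 against ZT0, 3 of the 6 calls were made with the 8 libraries of these times alone, and 3 to 7 without 1 library (3 without ZT0 replicate 2 or 3, or ZT12 replicate 2 or 4). The slope on Pck1 had 0 to 1 calls (1 without ZT9 replicate 3). The labels' replicate numbers mark no shared litter or day, same-numbered libraries had a median correlation of deviations of -0.119, and 8 of 32 libraries correlated best with one of their own number. With the replicate block the cosine was called in 13 members, the time points in 16 and ZT12 against ZT0 in 4. The cosine of Atg4a missed the threshold with library size alone (0.0734) and without the filter (0.0952), the time point difference of Tfe3 without the filter (0.087), and that of Atg7 without the filter (0.075) and without the libraries of highest muscle level (0.0662). The cosine of Atg12 passed with DESeq2 (0.0484) and that of Nbr1 with library size alone (0.0286). The causes were not tested. The muscle level as a covariate was added after seeing the data and left 12 cosine calls. No named member reversed direction.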
